A study of Mus musculus with 12 samples.

Results

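Glucocorticoids are steroid hormones of the adrenal cortex that are released under stress, infection included. They enter cells, bind the glucocorticoid receptor encoded by Nr3c1 and free it from its heat-shock chaperones, and the receptor then moves to the nucleus and switches on genes through palindromic DNA elements. A small group of genes answers in many tissues and is widely read as a sign of this hormone signal. The 9 genes described here are of that kind: Tsc22d3, Fkbp5, Per1, Klf9, Sgk1, Zbtb16, Cebpd, Pdk4 and Errfi1. They were picked by symbol as known glucocorticoid targets, and all 9 were found among 18609 listed genes. The choice was made with the FPKM values of these libraries already known, so the values of the 9 genes, and every difference made from them, are given as a description with no p-value; where the number of them past the threshold is given, it stands beside the share of all tested genes and nothing is read from it. Of the 9, 8 were among the 12164 genes that reached 0.5 FPKM in at least 3 libraries and entered the fit, and Zbtb16 lay below that level.

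MC38 is a line of mouse colon cancer, and its tumours, grown in C57BL/6 mice, were sequenced as 12 libraries. The 4 groups of 3 libraries were TLR4 knockout hosts given Salmonella intravenously, wild-type hosts given Salmonella, knockout hosts given phosphate-buffered saline (PBS) and wild-type hosts given PBS, each 1 day after the injection. TLR4 is the receptor for bacterial lipopolysaccharide, and the deletion is a property of the host, while the tumour line is not said to carry it. Each group holds libraries titled F-1, M-1, M-2, in which order values are given. Age, the deleted part of Tlr4 and whether the 3 libraries came from separate animals are not stated in the labels, so errors measure only the spread between these samples and can include technical spread.

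Depth ran from 30508678 to 38758885 fragments per library, so that 1 fragment in a gene of 1 kb equalled 0.0258 to 0.0328 FPKM, a fragment count divided by gene length and by the library's total. Levels are given as scaled FPKM, that is the deposited FPKM divided by a scaling factor per library, which was 0.851 and 0.853 for the F-1 and M-1 libraries of wild-type hosts given Salmonella and between 0.997 and 1.048 for the other 10. Wild-type Salmonella M-2 stood apart from its mates in this factor, and counts that change by over 1.5 times without it are given both ways for the glucocorticoid-related lists. Tlr4 itself was between 1.73 and 1.91 scaled FPKM in knockout Salmonella libraries and between 2.49 and 4.43 in wild-type Salmonella libraries, and between 1.55 and 3.01 in knockout PBS libraries against 2.38 to 2.50 in wild-type PBS libraries, and no library lacked Tlr4 RNA, which checks the genotype labels poorly because the deleted part is not given. Of 7 epithelial markers, 5 (Epcam, Krt8, Krt18, Cdh1 and Vil1) lay under 0.5 scaled FPKM in all 12 libraries, although the labels call the cells colon cancer cells. In bulk tumour RNA, fewer cells of a type and less RNA per cell cannot be told apart.

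The start regions of the genes differ in the letters that the receptor and related factors are known to read. RefSeq (GRCm38.p6) gave 16 windows, from 250 bases before to 50 bases after a start, for 7 of the 9 genes. Sgk1 alone had 6 of these, so counts of windows are not counts of genes. Cebpd and Zbtb16 are named only. The palindromic glucocorticoid element was searched on both strands as GAACA, any 3 bases and TGTTC, and the 3 motifs below were searched the same way. It occurred in 1 of the 16 windows, belonging to Sgk1, and in 19 of all 32851 mouse windows (0.0578%). Its shorter core ACANNNTGT, which overlaps it, occurred in 2 of the 16, both of Sgk1, and in 6.85% of all windows. The E-box CACGTG, the letters bound by the circadian clock activators, was found in 3 windows, of Fkbp5, Per1 and Sgk1, and in 7.15% of all. The cyclic AMP response element TGACGTCA was found in 1 window, of Errfi1, and in 1.79% of all. The Sgk1 window is shown because it holds the only palindrome among the 9 genes' windows, the Per1 window because Per1 is both a clock gene and a hormone target, the Errfi1 window for its cyclic AMP element, and the Pdk4 window because Pdk4 had the largest ratio between Salmonella and PBS of the 9 genes in wild-type hosts and its window none of the 4 motifs. Capitals mark GAACAGAATGTTC in Sgk1, CACGTG in Per1 and TGACGTCA in Errfi1, starting 188, 166 and 51 bases before the start site in that order of genes. The Sgk1 window shown also holds CACGTG near its left end, left in small letters. A match describes letters and is no evidence of binding.
Sgk1 chr10:21993640-21993939 (+ strand): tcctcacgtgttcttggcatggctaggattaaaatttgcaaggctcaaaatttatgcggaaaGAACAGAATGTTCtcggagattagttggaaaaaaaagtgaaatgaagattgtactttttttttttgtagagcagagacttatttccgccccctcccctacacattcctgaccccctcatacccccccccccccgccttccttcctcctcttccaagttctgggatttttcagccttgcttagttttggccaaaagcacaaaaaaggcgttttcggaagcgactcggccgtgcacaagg
Per1 chr11:69098699-69098998 (+ strand): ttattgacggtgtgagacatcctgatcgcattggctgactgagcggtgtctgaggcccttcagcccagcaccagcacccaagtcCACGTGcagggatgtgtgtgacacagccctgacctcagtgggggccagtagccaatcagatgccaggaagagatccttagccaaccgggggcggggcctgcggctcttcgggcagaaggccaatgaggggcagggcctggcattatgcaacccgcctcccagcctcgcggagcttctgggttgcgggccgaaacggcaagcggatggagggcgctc
Errfi1 chr4:150854820-150855119 (+ strand): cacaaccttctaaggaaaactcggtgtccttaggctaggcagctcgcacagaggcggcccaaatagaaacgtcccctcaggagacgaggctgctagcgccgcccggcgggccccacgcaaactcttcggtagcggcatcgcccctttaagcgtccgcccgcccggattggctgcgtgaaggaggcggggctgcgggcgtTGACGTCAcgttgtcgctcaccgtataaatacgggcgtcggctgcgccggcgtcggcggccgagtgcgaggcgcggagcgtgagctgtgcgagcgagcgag
Pdk4 chr6:5496229-5496528 (- strand): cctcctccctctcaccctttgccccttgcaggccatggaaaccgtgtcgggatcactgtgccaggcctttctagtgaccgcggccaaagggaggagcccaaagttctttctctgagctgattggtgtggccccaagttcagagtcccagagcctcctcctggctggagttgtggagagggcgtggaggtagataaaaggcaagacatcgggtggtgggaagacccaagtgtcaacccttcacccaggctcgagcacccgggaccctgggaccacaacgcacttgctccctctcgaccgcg

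**Figure D1:**
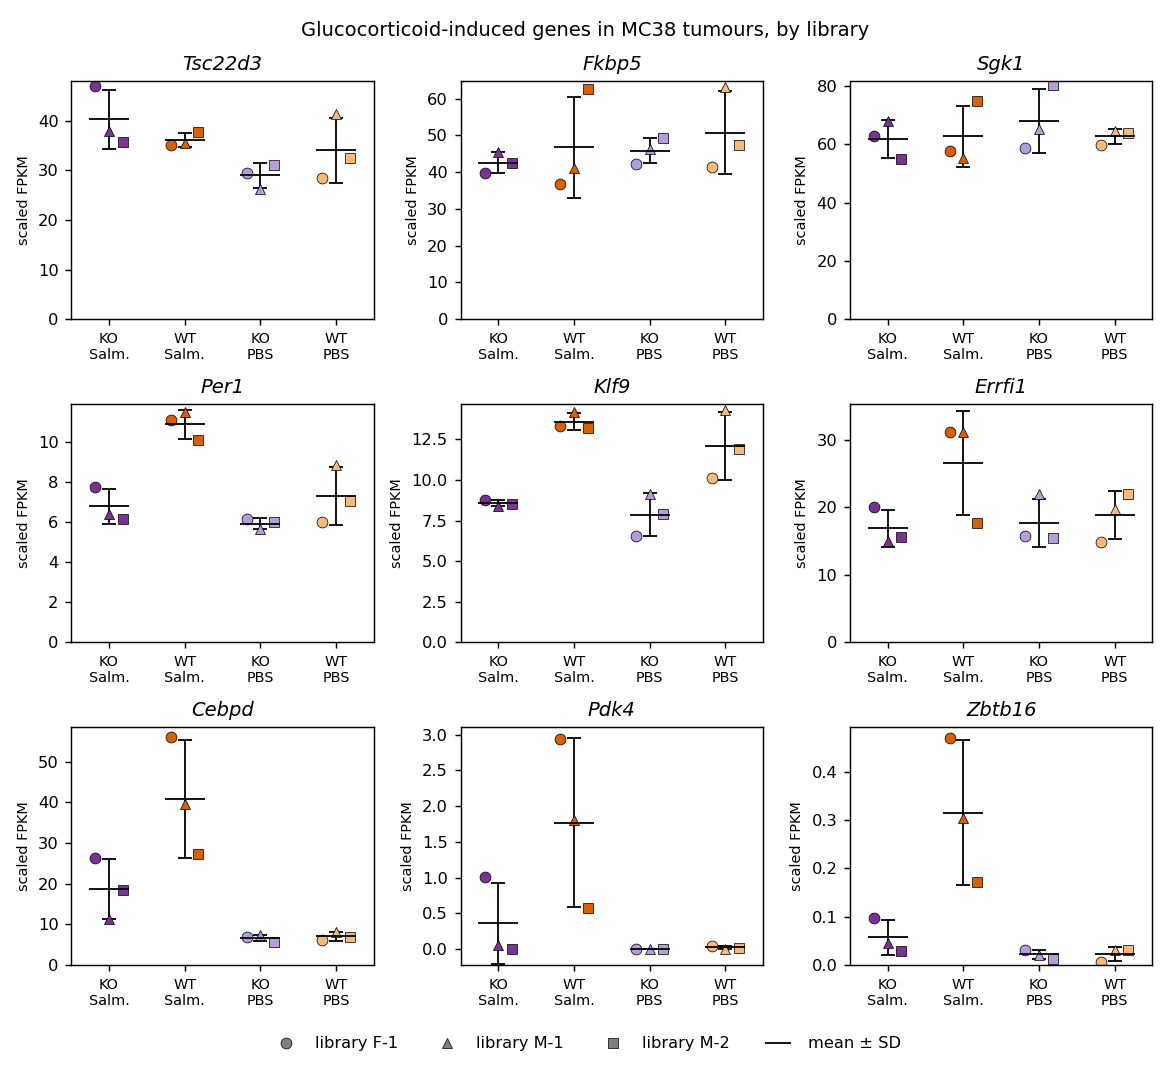
Scaled FPKM of the 9 genes in each library, by group (linear axes, each from 0 or just below it; circles F-1, triangles M-1, squares M-2; bars are the mean ± SD of 3 libraries). Cebpd, Pdk4 and Zbtb16 sat near their low end under PBS and were high in wild-type Salmonella libraries, the 4 groups overlapped for Fkbp5 and Sgk1, and Klf9 was lower in knockout than in wild-type hosts under both treatments.

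Tsc22d3, Fkbp5 and Sgk1, which are the standard readouts of the hormone in many tissues, were abundant and differed little between groups in wild-type hosts. Sgk1 lay above 90.8% of tested genes in wild-type PBS libraries, Fkbp5 above 88.1% and Tsc22d3 above 81.9%, on the per-length scale of FPKM, where the median tested gene was at 9.20. Each was measured with at least 3735 fragments in every library. None of the 3 separated Salmonella from PBS libraries in wild-type hosts.

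Tsc22d3 encodes GILZ, a leucine zipper protein that mediates part of the anti-inflammatory action of glucocorticoids. It measured 47.0, 38.0 and 35.8 scaled FPKM in knockout Salmonella libraries, against 29.5, 26.3 and 31.2 in knockout PBS libraries. All 3 knockout Salmonella libraries were above all 3 knockout PBS libraries, by 0.46 ± 0.14 (log2 difference ± SE of scaled FPKM + 0.5), or 0.34 without the highest library, F-1. Wild-type Salmonella libraries measured 35.2, 35.5 and 37.8, and wild-type PBS libraries 28.4, 41.3 and 32.6. The wild-type groups overlapped, the PBS libraries being the more scattered, with a difference of 0.10 ± 0.14 that turned to -0.09 with FPKM as deposited and to -0.02 without wild-type PBS F-1.

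Fkbp5 encodes a co-chaperone that holds the receptor in a low-affinity state and so closes a feedback loop. Knockout Salmonella libraries measured 39.8, 45.6 and 42.4 scaled FPKM, and knockout PBS libraries 42.2, 46.4 and 49.2. In wild-type hosts the Salmonella libraries measured 36.8, 41.2 and 62.6, and the PBS libraries 41.3, 63.3 and 47.5. The groups overlapped in both hosts, and in wild-type hosts a single library of each group, Salmonella M-2 and PBS M-1, stood about level at the top. The differences were -0.11 ± 0.19 in knockout and -0.13 ± 0.19 in wild-type hosts. The wild-type value hung on single libraries. It was -0.35 without Salmonella M-2, and above 0 without PBS M-1 or without Salmonella F-1. With FPKM as deposited it was -0.32.

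Sgk1 encodes a kinase that carries hormone signals to ion channels and transporters. It measured 62.8, 67.9 and 55.1 scaled FPKM in knockout Salmonella libraries, against 58.8, 65.2 and 80.3 in knockout PBS libraries. Wild-type Salmonella libraries measured 57.8, 55.3 and 74.9, and wild-type PBS libraries 59.8, 64.6 and 63.9. Again the groups overlapped in both hosts, with differences of -0.13 ± 0.14 in knockout and -0.01 ± 0.14 in wild-type hosts, the last being -0.21 with FPKM as deposited.

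Per1 and Klf9 are hormone targets that also take part in daily rhythms: Per1 encodes a repressor in the core clock, and Klf9 a zinc finger transcription factor. Per1 measured 7.78, 6.43 and 6.16 scaled FPKM in knockout Salmonella libraries, against 6.16, 5.64 and 6.01 in knockout PBS libraries. The knockout groups touched without overlapping on unrounded values (0.17 ± 0.13), and they overlapped with FPKM as deposited. Libraries of wild-type hosts measured 11.1, 11.5 and 10.1 under Salmonella, and 6.03, 8.87 and 7.08 under PBS. In wild-type hosts every Salmonella library was above every PBS library, by 0.56 ± 0.13, or 0.37 with FPKM as deposited.

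Klf9 measured 8.75, 8.41 and 8.54 scaled FPKM in knockout Salmonella libraries, against 6.54, 9.15 and 7.92 in knockout PBS libraries. Wild-type Salmonella libraries measured 13.3, 14.2 and 13.2, and wild-type PBS libraries 10.1, 14.3 and 11.9. Salmonella and PBS libraries overlapped in both hosts, with 0.13 ± 0.13 in knockout and 0.17 ± 0.13 in wild-type hosts, the last being -0.02 with FPKM as deposited. The split in Klf9 ran between hosts: every knockout library was below every wild-type library of the same treatment.

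Errfi1 encodes a feedback inhibitor of the epidermal growth factor receptor family. It measured 20.0, 15 and 15.6 scaled FPKM in knockout Salmonella libraries, against 15.8, 21.9 and 15.5 in knockout PBS libraries (-0.06 ± 0.23). In wild-type hosts it measured 31.1, 31.1 and 17.7 under Salmonella, and 14.9, 19.7 and 21.9 under PBS. F-1 and M-1 of wild-type Salmonella were above every other library, while M-2 lay among the PBS libraries, so the groups overlapped. The wild-type difference was 0.46 ± 0.23, and 0.73 without M-2.

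Cebpd, Pdk4 and Zbtb16 were low under PBS and high in all 3 wild-type Salmonella libraries. Cebpd encodes C/EBP delta, a transcription factor of the acute-phase response that inflammatory cytokines induce as well as glucocorticoids. It measured 26.3, 11.3 and 18.5 scaled FPKM in knockout Salmonella libraries, against 6.99, 7.30 and 5.72 in knockout PBS libraries. Wild-type Salmonella libraries measured 56.0, 39.5 and 27.2, and wild-type PBS libraries 6.15, 8.25 and 6.85. Salmonella libraries were above PBS libraries without overlap in both hosts, by 1.35 ± 0.30 in knockout hosts (1.07 without F-1) and by 2.40 ± 0.30 in wild-type hosts, where the ratio of group means was 5.78. The group means were 18.7 ± 7.47 in knockout Salmonella, 40.9 ± 14.5 in wild-type Salmonella, 6.67 ± 0.838 in knockout PBS and 7.08 ± 1.07 in wild-type PBS libraries (SD, n = 3 each).

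Pdk4 encodes a kinase that shuts down pyruvate dehydrogenase, which spares glucose in fasting muscle, heart and fat. It rested on 130, 9 and 1 fragments in knockout Salmonella libraries (1.01, 0.0658 and 0.00755 scaled FPKM) and on 1, 0 and 1 fragments in knockout PBS libraries. F-1 alone was high in knockout hosts, the groups overlapped, and no ratio is given against 2 fragments in all. Wild-type Salmonella libraries held 289, 162 and 78 fragments (2.94, 1.80 and 0.577 scaled FPKM), against 6, 1 and 3 in wild-type PBS libraries (0.0450, 0.00736 and 0.0223). There all 3 Salmonella libraries were above all 3 PBS libraries and the group means, 1.77 ± 1.18 and 0.0249 ± 0.0189 scaled FPKM (SD, n = 3 each), stood at a ratio of 71.2. Because Pdk4 is so low, its log2 difference depends on the 0.5 added to each value: 1.96 ± 0.43 in wild-type hosts became 3.67 with 0.1 added, 1.34 with 1 added and 5.78 in voom on the recovered fragments. In knockout hosts the difference was 0.58 ± 0.43, and 0.08 without F-1. Pdk4 entered the fit only through libraries where it was high, so its presence among the 8 says nothing of its change.

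Zbtb16 encodes PLZF, a zinc finger repressor that glucocorticoids and progestins strongly induce in many cell types. It rested on 30, 15 and 9 fragments in knockout Salmonella libraries, against 9, 7 and 4 in knockout PBS libraries, where the groups overlapped. Wild-type Salmonella libraries held 110, 65 and 55 fragments, and wild-type PBS libraries 2, 10 and 10. All wild-type Salmonella libraries were above all PBS libraries, with group means of 0.315 ± 0.150 and 0.0229 ± 0.0143 scaled FPKM (SD, n = 3 each), a ratio of 13.8. Zbtb16 thus stayed below 0.5 scaled FPKM in all 12 libraries, and its highest value was 0.470.

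**Figure D2:**
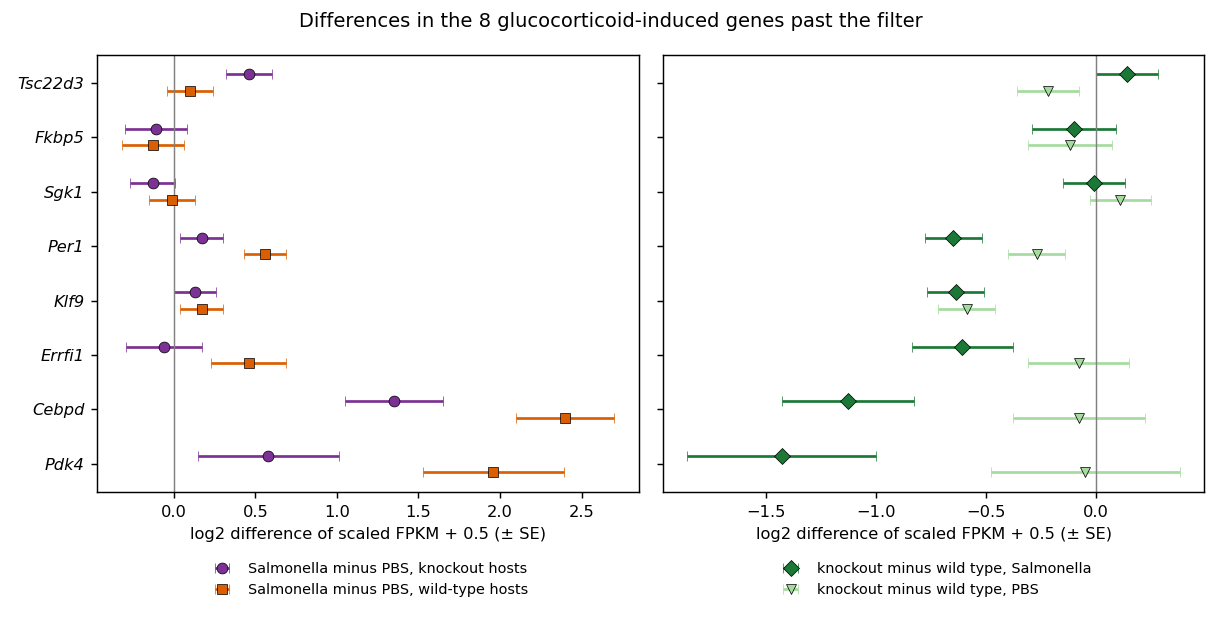
Log2 differences of scaled FPKM + 0.5 with SE for the 8 genes in the fit: Salmonella minus PBS in knockout (circles) and wild-type hosts (squares) on the left, knockout minus wild type under Salmonella (diamonds) and PBS (triangles) on the right. Cebpd and Pdk4 had the largest differences in wild-type hosts (2.40 and 1.96), Tsc22d3, Fkbp5 and Sgk1 lay between -0.13 and 0.10 there, and Klf9 was about as far below 0 under PBS (-0.59) as under Salmonella (-0.64).

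Across the 9 genes, Salmonella libraries were above PBS libraries without overlap for 3 in knockout hosts (Tsc22d3, Per1 and Cebpd) and for 4 in wild-type hosts (Per1, Zbtb16, Cebpd and Pdk4). Among all tested genes, 14.8% in knockout and 22.7% in wild-type hosts were above in this sense. The median difference over the 8 fitted genes was 0.15 in knockout and 0.32 in wild-type hosts, against 0.00 and -0.01 over all tested genes. With FPKM as deposited the median of all tested genes in wild-type hosts was itself -0.19, and that of the 8 genes 0.13. As a description, 2 of the 8 had an unadjusted p under 0.05 in limma in knockout hosts, beside 2316 of the 12164 tested genes. There 0 of the 8 lay past an adjusted p of 0.05 (0 in voom), where 0.773% of all tested genes passed. In wild-type hosts 3 of the 8 lay past it (Per1, Cebpd and Pdk4, all higher, Pdk4 having entered only where it was high), where 35.6% of all tested genes passed, 18.6% higher and 17.0% lower. Without wild-type Salmonella M-2 these counts were 1 (Cebpd) in knockout and 4 (with Errfi1) in wild-type hosts, beside 754 and 6220 of all genes tested in that fit. Without knockout Salmonella M-1 the count in knockout hosts was 1 (Cebpd). Because the 9 genes were chosen with these values known, nothing is read from the counts.

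Between hosts, the genes that were high in wild-type Salmonella libraries were lower in knockout Salmonella libraries. Without overlap, knockout was below wild type under Salmonella for Per1 (-0.65 ± 0.13), Klf9 (-0.64 ± 0.13), Cebpd (-1.13 ± 0.30) and Zbtb16, whose mean was 0.0576 ± 0.0361 scaled FPKM in knockout and 0.315 ± 0.150 in wild-type Salmonella libraries, a ratio of 0.183. That is 4 of the 9 genes, where 12.9% of all tested genes lay below in this sense. Pdk4 (-1.43 ± 0.43) and Errfi1 (-0.61 ± 0.23) overlapped through knockout F-1 and wild-type M-2. Tsc22d3 (0.14 ± 0.14), Fkbp5 (-0.10 ± 0.19) and Sgk1 (-0.01 ± 0.14) overlapped too, and the last 2 turned to 0.06 and 0.15 with FPKM as deposited. The median over the 8 genes was -0.62, or -0.46 with FPKM as deposited, against 0.02 and 0.16 over all tested genes.

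Again as a description from which nothing is read, 3 of the 8 genes lay past the limma threshold as lower in knockout hosts under Salmonella (Per1, Klf9 and Cebpd), where 9.03% of all tested genes passed, 3.39% higher and 5.65% lower. Voom passed 2 of them, without Cebpd. These calls hang on single libraries. Without wild-type Salmonella M-2, 5 of the 8 passed (with Pdk4 and Errfi1), beside 4595 of all genes tested in that fit. Pdk4 had entered only where it was high. None passed without knockout M-1, knockout M-2, wild-type F-1 or wild-type M-1 of the Salmonella libraries. Fitted on the 6 Salmonella libraries alone, 0 of the 8 and 12 of all tested genes passed, against 1099 in the fit on all 12 libraries.

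Under PBS, Klf9 was the only gene of the 9 whose groups did not overlap, at 7.87 ± 1.31 scaled FPKM in knockout and 12.1 ± 2.09 in wild-type hosts (SD, n = 3 each), a difference of -0.59 ± 0.13. Of all tested genes, 4.03% lay below in this sense. The other 7 fitted genes differed by -0.27 to 0.11. In limma 0 of the 8 passed (0 in voom), as 0.0% of all tested genes did. At an unadjusted p under 0.05 there was 1 of the 8, beside 173 of the 12164 tested genes. Klf9 therefore stood lower in knockout hosts by nearly the same amount under Salmonella and PBS, with a difference between the effects of -0.04 ± 0.18 that turned to 0.12 with FPKM as deposited.

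The change with Salmonella was then set against the host genotype gene by gene, as the effect in knockout hosts minus that in wild-type hosts. It was 0.36 ± 0.19 for Tsc22d3, 0.02 ± 0.27 for Fkbp5 and -0.11 ± 0.19 for Sgk1 (0.05 with FPKM as deposited). For Per1 it was -0.38 ± 0.18, for Errfi1 -0.53 ± 0.32, for Cebpd -1.05 ± 0.42 and for Pdk4 -1.38 ± 0.61. Tsc22d3 was thus the gene of the 8 that tended most towards knockout hosts, and Pdk4 and Cebpd towards wild-type hosts. None of the 8 passed in limma (0 in voom), where 0.0247% of all tested genes passed. At an unadjusted p under 0.05 there were 2 of the 8, beside 1746 of the 12164 tested genes. Without wild-type Salmonella M-2, 2 of the 8 (Pdk4 and Errfi1) passed, beside 2237 of all genes tested in that fit. Pdk4 had entered only where it was high, and nothing is read from these counts.

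The 9 genes differed in which library of a group was highest. Within the knockout Salmonella group, F-1 was the highest library for 7 of the 9, all but Fkbp5 and Sgk1, while it was highest for 38.2% of tested genes. Among wild-type Salmonella libraries the highest value was shared out: F-1 was highest for Zbtb16, Cebpd and Pdk4, M-1 for Per1, Klf9 and Errfi1, and M-2 for Tsc22d3, Fkbp5 and Sgk1. Among wild-type PBS libraries F-1 was lowest for 8 of the 9. Over the 12 libraries, each gene centred on its own mean, the nearest of the other members was Sgk1 for Fkbp5 (root mean square difference of log2 levels 0.179), Klf9 for Per1 (0.207) and Pdk4 for Cebpd (0.438). Other genes were nearer than the nearest member in every case, from 13 for Klf9 to 4136 for Tsc22d3.

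By the same measure over 12 libraries, the genes nearest to Tsc22d3 were Tpmt (0.118) and Mccc1 (0.125), to Fkbp5 Trim24 (0.119) and Tulp2 (0.128), and to Sgk1 Hadhb (0.087) and Plekhb2 (0.090). For Per1 they were Pnrc1 (0.134) and Slc46a3 (0.140), for Klf9 Klhl24 (0.153) and Macrod1 (0.154), and for Errfi1 Zyx (0.145) and Rhog (0.153). Cebpd was nearest to Ms4a4a (0.252) and to Angptl4 (0.269), itself a glucocorticoid target. Pdk4 was nearest to Akap12 (0.224) and to Tcap (0.226), which encodes a protein of the muscle sarcomere. Libraries of 1 group share treatment and host, so this nearness is a description of these samples.

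Summed skeletal muscle and fat markers were high in some of the libraries where Pdk4, Cebpd and Zbtb16 were high. The 10 muscle markers summed to 128, 4.95 and 12.4 scaled FPKM in knockout Salmonella libraries, to 120, 95.8 and 45.7 in wild-type Salmonella libraries, to 3.06 to 12.2 in knockout PBS libraries and to 3.32 to 7.21 in wild-type PBS libraries. The 8 fat cell markers summed to 63.1, 9.62 and 11.6 in knockout Salmonella libraries, to 57.1, 32.4 and 16.9 in wild-type Salmonella libraries, to 8.36 to 8.56 in knockout PBS libraries and to 9.47 to 15.8 in wild-type PBS libraries. Among wild-type Salmonella libraries the order F-1, M-1, M-2 was that of Pdk4, Cebpd, Zbtb16 and both sums, and in knockout hosts F-1 was highest for all 5. The same held for the sums of the second glucocorticoid list, the receptor list, the fasting list and the skin markers described below, so it is not particular to muscle and fat. In knockout hosts M-1 was above M-2 for Pdk4 and Zbtb16 but below it for both sums. Among the muscle genes, Mylpf, a myosin light chain gene, rose in wild-type hosts (2.95, limma adjusted p = 0.00452) and was 1.26 higher in knockout hosts (limma adjusted p = 0.253). No count is given for the muscle list, since some of its genes (Myh1 among them) entered the fit only through libraries where they were high. Of 4 tested fat markers 1 rose in wild-type hosts (Lpl, 0.70), where 35.6% of all tested genes passed, and 0 passed in limma in knockout hosts (1 at an unadjusted p under 0.05, 0 in voom). The defining fat gene Adipoq measured 2.22, 0 and 0.0846 scaled FPKM in knockout Salmonella libraries and 0.882, 0.779 and 0.166 in wild-type Salmonella libraries. The part of muscle and fat cells in the Pdk4, Cebpd and Zbtb16 values was not tested.

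**Figure D3:**
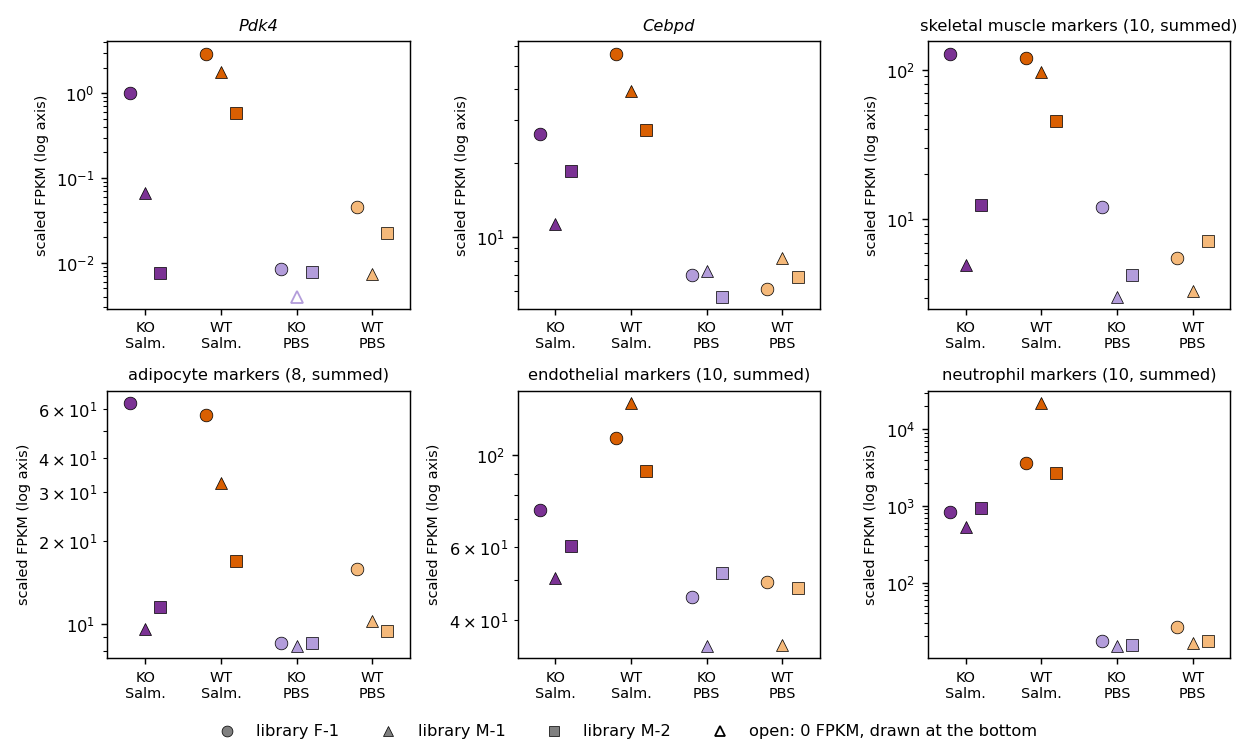
Scaled FPKM of Pdk4 and Cebpd and summed scaled FPKM of marker lists for muscle, fat, endothelial cells and neutrophils in each library, by group (log axes; circles F-1, triangles M-1, squares M-2; the open triangle is a value of 0). Knockout Salmonella F-1 was high for Pdk4 (1.01) and for the muscle (128) and fat (63.1) sums, while M-1 and M-2 of that group were low for all 3.

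Blood and vessel markers moved with treatment and host as well. The marker lists, those of muscle and fat included, were chosen with earlier results of these data known. Their counts and p-values are therefore a description. The 10 neutrophil markers summed to 530 to 927 scaled FPKM in knockout Salmonella libraries, to 3620, 22000 and 2690 in wild-type Salmonella libraries, to 15 to 17.3 in knockout PBS and to 16.4 to 26.7 in wild-type PBS libraries. No count is given for the neutrophil list, since some of its genes (Cxcr2 among them) entered the fit only through Salmonella libraries, where they were high. S100a8 and S100a9 rose in wild-type hosts (9.1 and 9.69, limma adjusted p = 0.000121 and 0.000132). They rose in knockout hosts too (6.62 and 8.4, limma adjusted p = 0.006 and 0.00364), calls each lost in 1 of 22 alternatives. The neutrophil sum peaked in wild-type Salmonella M-1, which was also the highest library of that group for Per1, Klf9 and Errfi1 but not for Cebpd, Pdk4 or Zbtb16. Under Salmonella S100a8 and S100a9 were lower in knockout hosts (-3.13 and -2.85, limma adjusted p = 0.0285 and 0.047), calls lost in 6 and 16 of 22 alternatives. The 10 endothelial markers summed to 50.4 to 73.8 in knockout Salmonella, 91.7 to 134 in wild-type Salmonella, 34.6 to 51.9 in knockout PBS and 34.7 to 49.5 in wild-type PBS libraries. In wild-type hosts 9 rose, where 18.6% of all tested genes were higher, with Pecam1, Sox18, Emcn and Esam (1.19 to 1.77) leading. Tek, 1 of the 9, entered the fit only through wild-type Salmonella libraries, where it was high. Fibroblast markers summed to 882 to 1170 in knockout Salmonella, 1490 to 2440 in wild-type Salmonella, 828 to 1180 in knockout PBS and 973 to 1210 in wild-type PBS libraries. Of 10 tested 4 rose and 1 fell in wild-type hosts (Col1a1 1.97, Col1a2 2.46, Dcn 1.27 and Pdgfrb -0.73 had the smallest p). Over all tested genes 18.6% were higher and 17.0% lower in wild-type hosts. The 10 macrophage markers summed to 742 to 1080 in knockout Salmonella, 659 to 1140 in wild-type Salmonella, 756 to 1690 in knockout PBS and 817 to 1430 in wild-type PBS libraries. In wild-type hosts their median log2 difference was -0.33, with 3 above 0 and 7 below it. Of the 10, Itgam (1.67) and Mrc1 (2.07) rose and Ccr2 (-1.56) fell in wild-type hosts, beside 18.6% higher and 17.0% lower over all tested genes. Itgam was highest in wild-type Salmonella M-1 (89.1 scaled FPKM), the library where the neutrophil sum peaked. Cd8a (-1.44) fell among 7 tested lymphocyte markers (0 in voom), a call lost in 9 of 22 alternatives. It entered the fit through PBS libraries, where it was high. Of the Salmonella libraries, wild-type F-1 alone (0.818 scaled FPKM) reached 0.5. Krt20 (1.46) rose as the only tested epithelial marker. The 7 epithelial markers summed to only 0.62 to 1.16 in wild-type PBS and 1.56 to 5.08 in wild-type Salmonella libraries. The shares over all tested genes are those given above. Of 3 tested skin markers 0 passed in limma (1 at an unadjusted p under 0.05, 0 in voom). The part of these cells in the 9 genes' values was not tested either.

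A second list of 23 genes that glucocorticoids induce was read beside the 9. It and the lists below were chosen with earlier results of these data known. Their counts and p-values are therefore a description. Of its 18 tested genes, 0 passed in limma in knockout hosts (4 at an unadjusted p under 0.05, 0 in voom), with a median of 0.05. Of all 12164 tested genes, 2316 had an unadjusted p under 0.05 there. Without wild-type Salmonella M-2, 2 of the 18 passed in knockout hosts, beside 754 of all genes tested in that fit. In wild-type hosts 5 rose and 3 fell, 44.4% of those tested, with a median of 0.19 that was -0.01 with FPKM as deposited. Of the 5, Cdkn1c and Cd163 entered the fit only through Salmonella libraries, where they were high. Of the PBS libraries, wild-type F-1 alone (1.13 scaled FPKM) reached 0.5 for Cd163. Over all tested genes 35.6% passed in wild-type hosts, 18.6% higher and 17.0% lower, so nothing is particular to the list in these counts. Gpx3, a secreted glutathione peroxidase, rose to 113 ± 50.7 scaled FPKM in wild-type Salmonella libraries, against 15.1 ± 5.14 in wild-type PBS libraries (log2 difference 2.81 ± 0.45, limma adjusted p = 0.00252). Angptl4, an inhibitor of lipoprotein lipase, rose to 48.2 ± 17.8, against 7.44 ± 1.01 (2.55 ± 0.27, limma adjusted p = 0.000425). Glul, the glutamine synthetase gene, rose to 41.1 ± 5.86, against 19.4 ± 1.38 (1.06 ± 0.15, limma adjusted p = 0.00113). Lpin1, a phosphatidate phosphatase of fat metabolism, fell to 1.87 ± 0.822, against 4.51 ± 0.237 (-1.13 ± 0.22, limma adjusted p = 0.00405). The other 4 that passed were Cd163 and Cdkn1c, which rose, and Txnip and Rgs2, which fell; Cdkn1c was lost in 13 of 21 alternatives, Cd163 and Txnip in 6 of 22 each and Rgs2 in 2 of 22. Klf15, Rasd1, Hif3a, Tat and Pck1 were below the filter.

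In knockout hosts Gpx3 measured 28.4 ± 14.7 scaled FPKM under Salmonella and 9.4 ± 1.69 under PBS, and Angptl4 15.8 ± 3.92 and 6.44 ± 0.328, with log2 differences of 1.43 ± 0.45 (limma adjusted p = 0.136) and 1.20 ± 0.27 (limma adjusted p = 0.0717). Between hosts under Salmonella, Gpx3 (-1.98), Angptl4 (-1.53), Irs2 (-0.95) and Glul (-0.89) were lower and Txnip (0.68) higher in knockout hosts. That is 5 of 18 in limma and 3 in voom, where 3.39% of all tested genes were higher and 5.65% lower in limma. The count was 0 in the fit on the 6 Salmonella libraries alone, and ranged from 0 to 8 as single libraries were left out. Under PBS and for the interaction 0 of the 18 passed in limma (1 and 2 at an unadjusted p under 0.05, 0 and 0 in voom). Without wild-type Salmonella M-2, 5 passed for the interaction, beside 2237 of all genes tested in that fit.

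**Figure D4:**
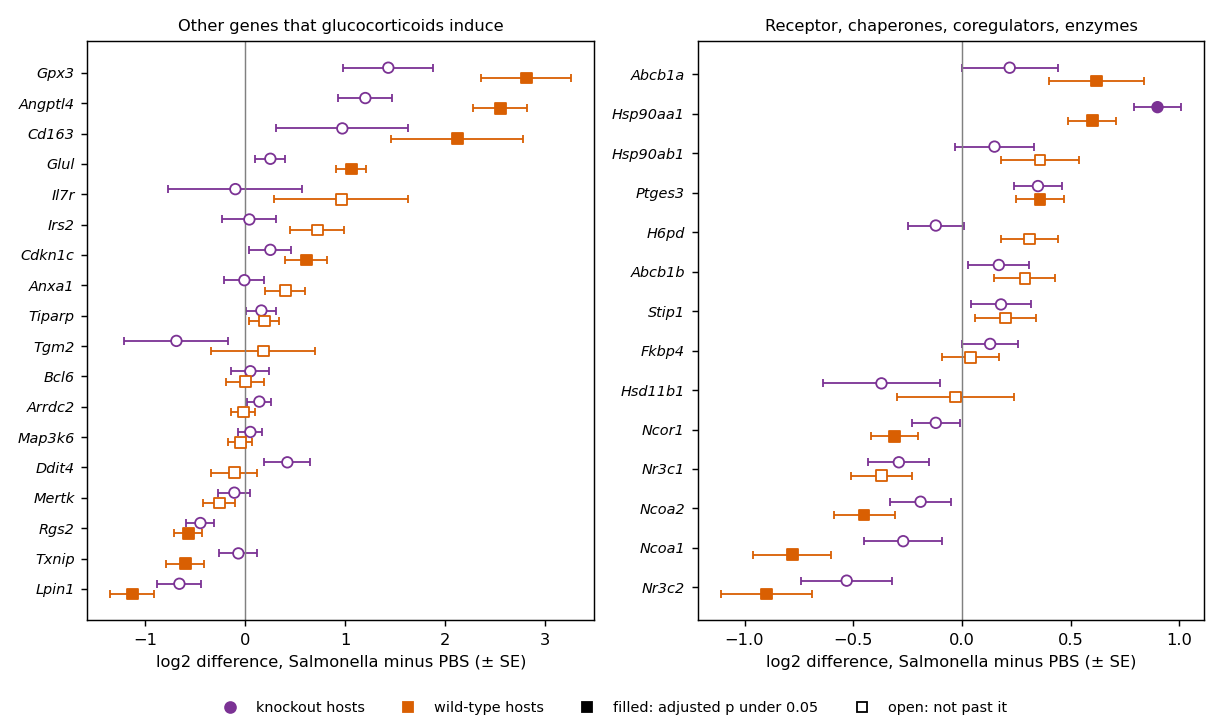
Log2 differences, Salmonella minus PBS, with SE for 18 further glucocorticoid-induced genes (left) and 14 genes of receptor, chaperones, coregulators and enzymes (right), in knockout (circles) and wild-type hosts (squares); filled symbols passed an adjusted p of 0.05 in limma. On the left 5 genes rose and 3 fell in wild-type hosts, and 0 passed in knockout hosts. Of the 5, Cdkn1c and Cd163 entered only through Salmonella libraries. On the right Hsp90aa1 passed in both hosts.

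The 10 genes that both glucocorticoids and inflammatory signals induce moved mostly in 1 direction in wild-type hosts. In knockout hosts 1 of 10 rose (Lcn2, 0 in voom), with a median of 0.70, where 0.773% of all tested genes passed. Without wild-type Salmonella M-2, 4 of the 10 passed there, beside 754 of all genes tested in that fit. In wild-type hosts 9 of 10 rose, with a median of 2.18, where 18.6% of all tested genes were higher. As this list was chosen with earlier results of these data known, its counts are a description. Lcn2 (9.63), Il1r2 (4.70), Irak3 (3.57) and Tnip1 (1.33) had the smallest p in wild-type hosts. Lcn2 binds bacterial siderophores, Il1r2 is a decoy receptor for interleukin-1, and Irak3 and Tnip1 restrain Toll-like receptor and NF-kB signalling. Under Salmonella 9 of the 10 were lower in knockout hosts (median -1.58, 7 in voom), where 5.65% of all tested genes were lower. For the interaction 0 passed in limma (0 in voom), where 0.0247% of all tested genes passed. At an unadjusted p under 0.05 there were 8 of the 10 for the interaction, beside 1746 of the 12164 tested genes. Without wild-type Salmonella M-2, 9 passed in limma for the interaction, beside 2237 of all genes tested in that fit.

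The receptor gene itself did not pass. Nr3c1 measured 7.32 ± 0.898 scaled FPKM in knockout Salmonella against 9.09 ± 1.62 in knockout PBS libraries (-0.29 ± 0.14, limma adjusted p = 0.293), and 7.75 ± 0.525 in wild-type Salmonella against 10.2 ± 1.41 in wild-type PBS libraries (-0.37 ± 0.14, limma adjusted p = 0.0581). Hsd11b1, which regenerates active hormone inside cells, measured 17.5 ± 4.44 in knockout Salmonella against 22.7 ± 5.13 in knockout PBS libraries, and 21.3 ± 7.92 in wild-type Salmonella against 21.0 ± 3.43 in wild-type PBS libraries (limma adjusted p = 0.491 and 0.943). Of the 14 tested genes around the receptor, 1 rose in knockout hosts, and 3 rose and 4 fell in wild-type hosts, beside 0.773% in knockout and 35.6% in wild-type hosts over all tested genes. The chaperone gene Hsp90aa1 rose in both hosts (0.90 in knockout, limma adjusted p = 0.00996; 0.60 in wild-type hosts, limma adjusted p = 0.00362), and Ptges3 and Abcb1a rose in wild-type hosts, Abcb1a being lost in 19 of 22 alternatives. The mineralocorticoid receptor gene Nr3c2 (-0.90), the coactivators Ncoa1 (-0.78) and Ncoa2 (-0.45) and the corepressor Ncor1 (-0.31) fell there, Ncor1 being lost in 16 of 22 alternatives. Between hosts under Salmonella H6pd alone of the 14 passed, as lower in knockout hosts (-0.49, 0 of 14 in voom), a call lost in 16 of 22 alternatives. Over all tested genes 9.03% passed there. Without wild-type Salmonella M-2, 6 of the 14 passed, beside 4595 of all genes tested in that fit. The inactivating enzyme Hsd11b2 and the steroid-making enzymes Cyp11a1 and Cyp11b1 lay under 0.5 scaled FPKM in every library.

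Per1 and Pdk4 also belong to other programmes, so the rest of those was counted. Of 14 tested clock genes beside Per1, 0 passed in limma in knockout hosts (5 at an unadjusted p under 0.05, 0 in voom), and 2 rose and 6 fell in wild-type hosts, where 18.6% of all tested genes were higher and 17.0% lower. Those with the smallest p were Bhlhe41 (-0.65), Bhlhe40 (-0.44) and Per3 (-0.70), which fell, and Nfil3 (1.07), which rose; Cry1 (0.53) rose too. Per1 differed by 0.56 in wild-type hosts. Of 15 tested fasting genes driven by FOXO or PPAR factors beside Pdk4, 1 fell in knockout hosts (Acadvl, 0 in voom), where 0.773% of all tested genes passed. Without wild-type Salmonella M-2, 2 of the 15 passed there, beside 754 of all genes tested in that fit. In wild-type hosts 4 rose and 4 fell, again beside 18.6% higher and 17.0% lower over all tested genes. Fbxo32, 1 of the 4 that rose, entered the fit only through Salmonella libraries where it was high. In wild-type hosts Plin2 (1.27), Fabp4 (3.15) and Cpt1a (0.46) rose and Pik3ip1 (-0.68) fell with the smallest p. Fabp4 is also a fat and endothelial gene.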

How the data were processed

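RNA-seq was run on total RNA extracted with TRIzol and made into libraries with the VAHTS Universal V6 kit, per the labels' protocols. The submitters' processing notes name fastp, HISAT2 and HTSeq without versions; no label used here states the genome build, annotation or strand setting. FPKM, in 1 deposited table per library, is a unit inferred from the values: all 18609 genes of the authors' tables came out as whole fragments (within 0.01) at 1 gene length, and 387 were at 0 everywhere.

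Differences came from limma 3.58.1 in R 4.3.3 on log2(scaled FPKM + 0.5) over all 12 libraries, with trend and robust moderation, a mean for each group and 8 residual df. Scaling used trimmed means of log ratios (30% of ratios, 5% of levels). Genes reaching 0.5 FPKM in 3 or more libraries entered the two-sided test, Benjamini-Hochberg adjusted over 12164 genes, threshold 0.05. An unadjusted p under 0.05 was reached by 2316 of them in knockout hosts, 5767 in wild-type hosts and 1746 for the interaction. Between hosts it was reached by 3721 under Salmonella and 173 under PBS. The fit was also run on simulated data, whose outcome is not given here. Library mates differed by far more than sampling noise (chi-square per gene 16.9 to 167).

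The 9 genes and the 14 other lists were chosen with earlier results of these data known. The list of genes around the receptor is given without 1 gene, which is not reported here. Named are the 9 genes, in each other list the up to 4 called genes whose p in wild-type hosts was smallest, Nr3c1, Hsd11b1, the 2 nearest genes per fitted member and genes of the second glucocorticoid list or receptor list that make up a small count. The last, Cry1, Tek, Fbxo32 and the choice of Mylpf and Myh1 alone from the muscle list were made after their values were seen. So was the choice of S100a8, S100a9 and Cxcr2 from the neutrophil list. Alternatives were deposited FPKM, median-of-ratios scaling, pseudocounts of 0.1 and 1, a filter of 1 FPKM or none, voom on the recovered fragments, only the groups compared, title letter or replicate label in the model, and each library left out.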

Additional observations from a re-analysis of the deposited data

How the results depend on the processing

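Depth limits Pdk4 and Zbtb16, which rested on 0 to 10 fragments per PBS library, and with 3 libraries per group the calls between hosts under Salmonella hang on single libraries. Of 872 values of the 8 fitted genes under the alternatives, 858 moved by less than 1 SD of replicates, 14 by more (Pdk4 under other pseudocounts and voom; Tsc22d3, Per1, Klf9 and Sgk1 in wild-type hosts with FPKM as deposited), and 0 of the called ones changed sign. With FPKM as deposited the median over the 8 genes was 0.13 in wild-type hosts, -0.46 between hosts under Salmonella and -0.086 for the interaction, and of all calls 30.8% were higher in wild-type hosts (52.2% on scaled values) and 58.5% between hosts under Salmonella (37.5%).

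For the second glucocorticoid list, leaving out single libraries gave 4 to 10 calls in wild-type hosts, 0 to 2 in knockout hosts, 0 to 8 between hosts under Salmonella and 0 to 5 for the interaction. In knockout hosts 1 passed with FPKM as deposited, with only the groups compared and with the title letter; between hosts under Salmonella 3 passed with no filter, the title letter and voom, and 0 with only the groups compared, a setting that gives no interaction. The cause was not tested.

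Library labels showed no sign of pairing samples: same-label deviations correlated at -0.33 to 0.40 and different-label ones at -0.38 to 0.41. With 3 libraries per group this cannot show that a label marks no shared animal or batch. The labels do not explain the letters F and M. With the replicate block, 8 genes of that list passed in wild-type hosts and the median over the 8 fitted genes stayed 0.32. Over all genes, knockout hosts had 94 calls, against 192 with only the groups compared, 45 with the replicate block, 23 in voom and 754 without wild-type Salmonella M-2; wild-type hosts 4329, against 2438 with only the groups compared; the contrast of hosts under Salmonella 1099, against 572 in voom and 4595 without M-2; the interaction 3, against 6 as deposited, 0 in voom and 2237 without M-2.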
